A study of Mus musculus with 4 samples.

Results

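Described here are 35 mouse genes of endoplasmic reticulum (ER) stress and of the integrated stress response, measured in liver after ethylbenzene, an aromatic solvent. They were taken by symbol, each through its probe set of highest mean signal, and are 35 of the 18193 genes with a probe set of their own on the array. They comprise 22 genes of the unfolded protein response and 13 genes of the amino acid response. All 35 had a mean signal at or above 132.9, the level used as a low-signal filter (the median over all probe sets). C57BL/6J mice, 2 months old, received ethylbenzene (E, 7 mmol per kg) or phosphate-buffered saline (P, PBS) by intraperitoneal injection in a first exposure of 2 injections 24 h apart. After 7 days of normal feeding, ethylbenzene or PBS was given again, and livers were taken 5 h later. In the group names the letter before the plus sign is the earlier agent and the letter after it the later one. Groups P+P and E+P were pools of 3 mice each, whereas P+E and E+E were pools of 5. Each pool was measured on 1 Affymetrix array, so no difference below has a replicate check, and pool size cannot be told apart from the second exposure.

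Secretory proteins fold in the ER with the help of chaperones, and hepatocytes secrete large amounts of plasma protein. When unfolded proteins accumulate, the sensors PERK (gene Eif2ak3), IRE1 (Ern1) and ATF6 (Atf6) start the unfolded protein response, in which ATF6 and spliced XBP1 raise transcription of chaperones and of the machinery that removes misfolded proteins. PERK also phosphorylates the initiation factor eIF2, as do other kinases that sense amino acid shortage, haem shortage or double-stranded RNA. Phosphorylated eIF2 lowers general translation and favours translation of ATF4, a transcription factor that raises genes of amino acid synthesis and uptake and the factor CHOP (Ddit3). This second arm is called the integrated stress response, or amino acid response where shortage of amino acids starts it.

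The arms are read through different promoter letters, and the stretches that hold them are shown so that the genes that carry each can be seen. RefSeq windows from 250 bases before to 50 bases after a transcript start (assembly GRCm38.p6, 300 bases each) were at hand for 32 of the 35 genes, in 34 windows, and were searched on both strands. Atf6, Hyou1 and Manf had no window. The ER stress response element (ERSE) was searched as CCAAT and CCACG separated by 9 bases, and ERSE-II as ATTGG and CCACG separated by 1 base. The unfolded protein response element was searched as TGACGTGG and the amino acid response element (AARE) as TGATGNAA. Both ER stress elements end in CCACG and TGACGTGG holds its complement, so matches could overlap, although none did here. In the lines below, printed 5′ to 3′ along the gene's strand, capitals mark the matches.
Hspa5 (chr2:34771970-34772089, plus strand): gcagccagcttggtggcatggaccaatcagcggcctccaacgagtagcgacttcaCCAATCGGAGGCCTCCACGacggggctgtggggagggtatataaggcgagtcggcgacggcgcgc
Calr (chr8:84847065-84847103, minus strand): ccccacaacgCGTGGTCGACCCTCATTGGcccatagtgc
Hsp90b1, distal match (chr10:86705628-86705666, minus strand): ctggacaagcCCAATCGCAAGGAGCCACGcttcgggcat
Hsp90b1, proximal match (chr10:86705523-86705561, minus strand): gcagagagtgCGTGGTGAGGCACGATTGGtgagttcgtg
Canx (chr11:50325790-50325828, minus strand): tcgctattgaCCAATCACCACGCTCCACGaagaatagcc
Pdia6 (chr12:17266481-17266519, plus strand): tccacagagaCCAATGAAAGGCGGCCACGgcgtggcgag
Dnajc3 (chr14:118937817-118937855, plus strand): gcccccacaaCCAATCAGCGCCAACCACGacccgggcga
Creld2 (chr15:88819510-88819548, plus strand): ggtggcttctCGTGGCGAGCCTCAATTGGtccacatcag
Syvn1 (chr19:6046522-6046560, plus strand): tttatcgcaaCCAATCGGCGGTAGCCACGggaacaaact
Herpud1 (chr8:94386309-94386428, plus strand): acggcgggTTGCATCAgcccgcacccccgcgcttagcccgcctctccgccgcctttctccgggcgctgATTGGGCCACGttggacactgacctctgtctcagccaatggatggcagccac
Chac1 (chr2:119351039-119351066, plus strand): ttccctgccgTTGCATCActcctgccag
Asns (chr6:7693215-7693242, minus strand): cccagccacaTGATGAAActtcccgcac
Nupr1 (chr7:126625563-126625590, minus strand): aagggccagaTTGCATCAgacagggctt

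ERSE matches lay in 8 genes, all of the unfolded protein response. That was 42.1% of the windows of this arm and 0.0% of the 15 windows of the amino acid response, against 0.119% of all 32851 windows. ERSE-II matched in Herpud1 and, just after the start, in Dnajb11, against 0.0365% of all windows. AARE matched in Chac1, Asns, Nupr1 and, just after the start, Trib3 of the amino acid response, and in Herpud1. These were 14.7% of the members' windows against 3.97% of all windows. TGACGTGG matched in no member window and in 0.676% of all windows. The genes and the letters were both chosen by what is known of these arms, so the shares are a description and not a test. A match describes letters in a window and not binding, and a window without a match says nothing of the factor.

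**Figure D1:**
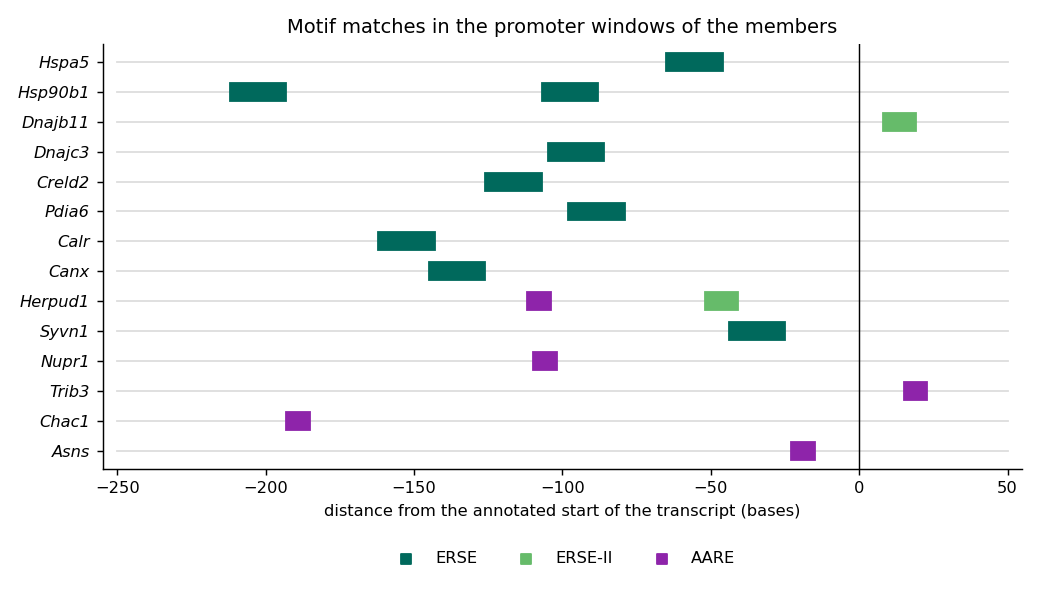
Positions of ERSE, ERSE-II and AARE matches in the promoter windows of the 14 genes with a match, as distance in bases from the annotated transcript start (vertical line at 0). ERSE boxes (dark green) lie between 212 bases before the start (Hsp90b1) and the start, and Herpud1 alone carries both an ERSE-II box (light green) and an AARE box (purple).

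Values below are quantile-normalized signals, and ratios are differences of log2(signal + 43.2), on which 1 means 2-fold. The fixed rule of size was a difference of at least 2-fold. Where 4 signals stand without array names, they follow the order P+P, E+P, P+E, E+E. P+E and E+E are called the ethylbenzene arrays, and P+P and E+P the PBS arrays, after the second exposure. The tissue label fitted its markers: all 8 hepatocyte genes listed, among them Alb and Apoa1, were past the filter, with a summed signal between 816962 and 935134 on the 4 arrays. The P+P array stood apart in its controls, with an 18S ribosomal RNA signal of 1872 against 122 to 182 on the other arrays, an Actb control signal of 8928 against 22081 to 30540, and a 3′ to 5′ ratio of Pcx of 23.51 against 6.15 to 12.03. P+P enters every P+E over P+P and E+P over P+P ratio. Values with E+P in its place, a choice listed among the alternatives, are therefore given for the groups and for the genes whose sign or 2-fold call they change.

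In both second-exposure ratios, P+E over P+P and E+E over E+P, which share no array, Chac1 and Ddit4 passed 2-fold upwards and Herpud1 passed it downwards. These were 2 (5.71%) and 1 (2.86%) of the 35 genes, against 3.19% and 2.03% of the 11527 genes past the filter. Both shares lay near the background.

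Chac1 encodes a glutathione-degrading enzyme that ATF4 and CHOP induce. Its signal was 932 on P+P and 2942 on P+E, and 1110 on E+P and 5078 on E+E. Both arrays with ethylbenzene in the second exposure lay above both with PBS, 3.06-fold after PBS and 4.44-fold after ethylbenzene (log2 ratios 1.61 and 2.15). Ddit4, which encodes the mTORC1 inhibitor REDD1, read 709 on P+P and 1638 on P+E, and 490 on E+P and 1067 on E+E. The same arrays were the high ones, by 2.24-fold and 2.08-fold, and both arrays with ethylbenzene in the first exposure were the lower of their pair. Chac1 and Ddit4 each had 1 probe set. Herpud1, an ER membrane protein that gathers the degradation machinery, read 25470 on P+P and 10342 on P+E, and 18727 on E+P and 9194 on E+E. Both second-exposure arrays with ethylbenzene were the low ones, 2.46-fold and 2.03-fold below their PBS arrays. Its other probe set gave log2 ratios of -1.43 and -0.95. With E+P in place of P+P the first of its ratios was -0.85, short of 2-fold.

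**Figure D2:**
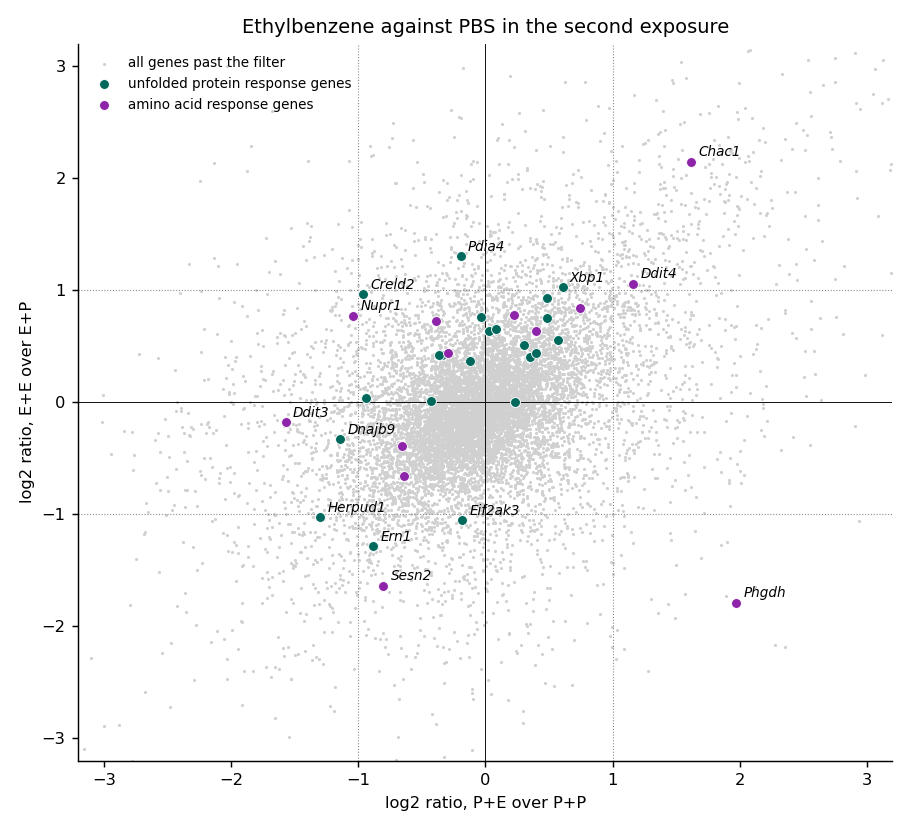
Log2 ratio of P+E over P+P (x axis) against E+E over E+P (y axis) for the 22 unfolded protein response genes (green), the 13 amino acid response genes (purple) and all genes past the filter (grey, those beyond the axes not drawn), with dotted lines at 2-fold. Chac1 (1.61 and 2.15) and Ddit4 (1.16 and 1.06) lie in the upper right corner, Herpud1 (-1.30 and -1.02) in the lower left, and Phgdh (1.97 and -1.79) is the only 1 of the 35 genes beyond 2-fold at the lower right.

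The ER chaperones and folding enzymes lay on both sides of 0 when ethylbenzene followed PBS, and most were higher when it followed ethylbenzene. This set was looked at apart after seeing the data. Its 14 genes were read on the same 4 arrays and are not replicates, so the counts below only describe these arrays. After PBS, 7 of 14 lay above 0 and the median log2 ratio was -0.00, while after ethylbenzene 13 of 14 lay above 0 and the median was 0.58. Over all genes past the filter 44.6% and 45.8% lay above 0, with medians of -0.07 and -0.05. Read from 1 probe set per gene, the difference between the second-exposure ratios was above 0 for all 14, with a median of 0.59. This held under the scaling used, under signals as deposited and at a common 75th percentile. Hspa5 (0.10 and -0.47) and Canx (0.21 and -0.59) each had a lower-signal probe set whose difference was below 0. Over all genes 50.3% lay above 0 and the median was 0.00. The signal on E+P was the lowest of the 4 arrays for 10 of the 14 genes, against 22.0% of all genes, and that on E+E the highest for 10 of 14, against 23.6%. These counts come from the same signals as the ratios and add no separate evidence. With E+P in place of P+P, 12 of 14 were above 0 in P+E and the median was 0.19. Hspa5 (0.38), Dnajb11 (0.43), Pdia4 (0.14), Canx (0.05) and Manf (0.17) were then above 0, and Creld2 was at -0.04.

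Pdia4, a protein disulphide isomerase, had the largest ratio of the 14 after ethylbenzene. It read 2474 on P+P and 2158 on P+E, and 1955 on E+P and 4887 on E+E, so E+E alone was high, 2.47-fold above E+P and 2.24-fold above P+E. Creld2, a resident ER protein induced by ER stress, read 2207 on P+P and 1110 on P+E, and 1139 on E+P and 2268 on E+E. The arrays with ethylbenzene in 1 of the exposures were the low pair, and those with PBS in both or ethylbenzene in both were the high pair. Its second-exposure log2 ratios were -0.96 and 0.97, and the ERSE of its promoter is printed above. Dnajb9, the ER co-chaperone ERdj4, read 6536 on P+P and 2940 on P+E, and 5040 on E+P and 4003 on E+E. It was 2.21-fold lower in P+E than in P+P, and -0.77 on the log2 scale against E+P, while after ethylbenzene its ratio was -0.33.

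Hspa5 encodes BiP, the main Hsp70 chaperone of the ER. Its signal was 22225 on P+P and 20473 on P+E, and 15753 on E+P and 20375 on E+E, with E+P lowest and the others close together, so that its log2 ratios were -0.12 and 0.37. The 2 other probe sets of Hspa5 gave -0.49 and 0.20, and 0.10 and -0.47. Hsp90b1, the ER member of the Hsp90 family, read 11594, 14119, 14303 and 20175, highest on E+E, with ratios of 0.30 and 0.51. Calr, the lectin chaperone calreticulin, read 30120, 23588, 31883 and 37165, with ratios of 0.08 and 0.65. Its sign in the first ratio turned at a common 75th percentile. Pdia6, another disulphide isomerase, read 4227, 3764, 5941 and 7206, with both ethylbenzene arrays above both PBS arrays and ratios of 0.49 and 0.93. The other 7 did not reach 2-fold in either second-exposure ratio, and all 7 were above 0 after ethylbenzene. The co-chaperones Dnajb11 (ERdj3) and Dnajc3 (P58IPK) had log2 ratios of -0.04 and 0.77, and 0.35 and 0.40. Sdf2l1, a partner of ERdj3, had ratios of 0.48 and 0.76. The disulphide isomerase Pdia3 (ERp57) had 0.03 and 0.64, with a first ratio that turned to -0.00 on the deposited signals, and Canx, the membrane lectin calnexin with which it works, had -0.34 and 0.42. The other probe sets of Canx gave -0.18 and 0.38, and 0.21 and -0.59. Manf, a chaperone-associated factor that is also secreted, had -0.37 and 0.43. Hyou1, an Hsp70-like nucleotide exchange factor, had 0.40 and 0.44, but its 2 other probe sets gave -1.57 and -1.02 after PBS and 0.77 and 1.19 after ethylbenzene.

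The 8 genes with an ERSE had a median log2 ratio of -0.02 after PBS and 0.47 after ethylbenzene, where all 8 were above 0 (Syvn1, at 0.04, turned to -0.00 on the deposited signals). The other 11 unfolded protein response genes with a window had medians of -0.18 and 0.56, with 7 of 11 above 0 after ethylbenzene.

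**Figure D3:**
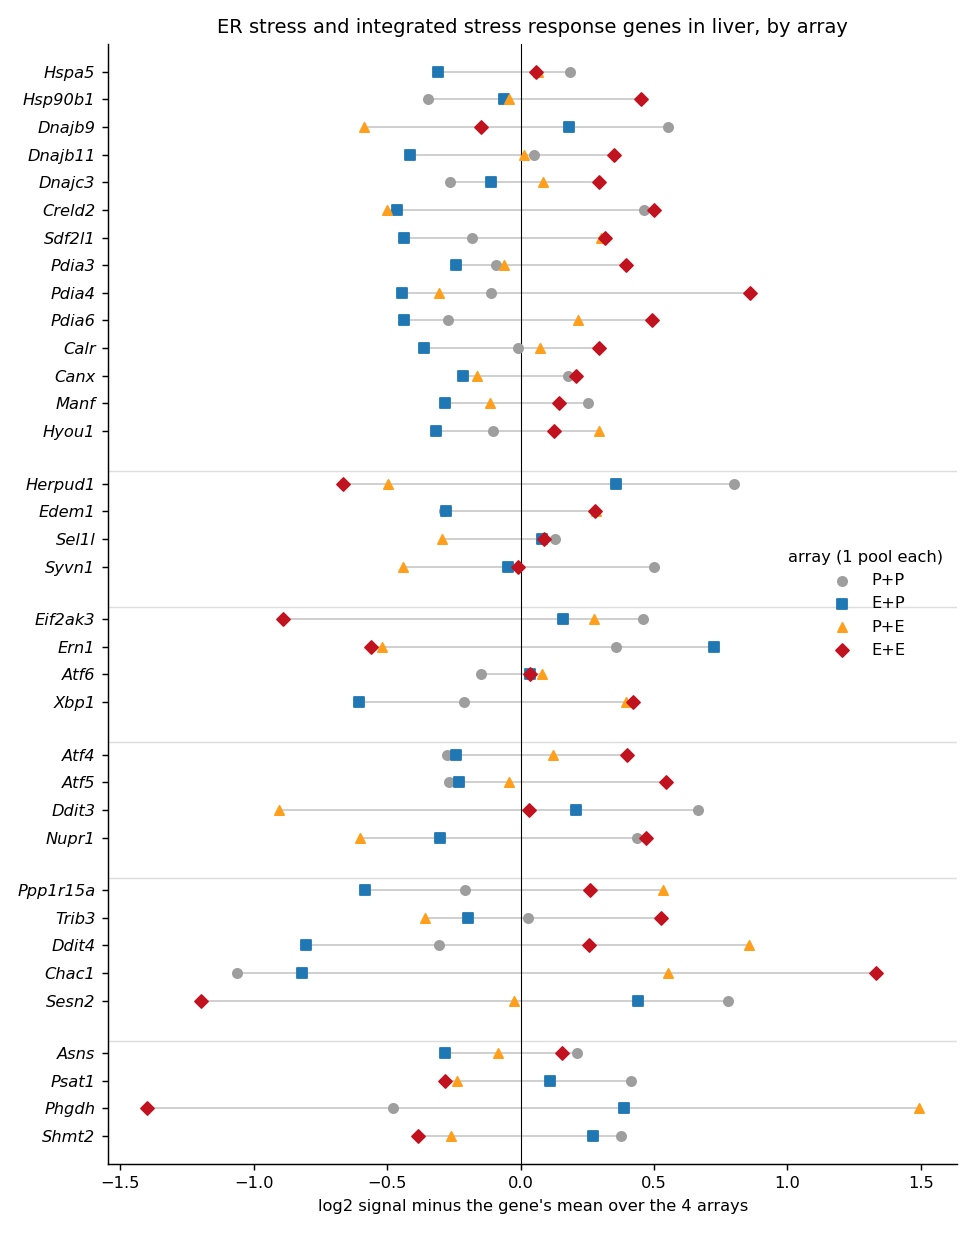
Log2 signal of each of the 35 genes on each array, as the distance from the gene's mean over the 4 arrays (x axis, log2 units), ordered by role from ER chaperones at the top to amino acid synthesis enzymes at the bottom; each point is 1 pool. E+E (red diamonds) is the rightmost point for Pdia4, Hsp90b1 and Chac1, both ethylbenzene arrays lie left for Herpud1, and P+E (orange triangles) lies far right for Phgdh.

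The other ER-associated degradation genes did not follow Herpud1 in size. Edem1, which takes mannose-trimmed glycoproteins to degradation, read 1841 on P+P and 2752 on P+E, and 1851 on E+P and 2745 on E+E, higher on both ethylbenzene arrays by 1.48-fold and 1.47-fold. Its second probe set gave log2 ratios of 0.55 and -0.03. Syvn1, the ubiquitin ligase HRD1, read 2049, 1389, 1048 and 1427, with P+P the high array and ratios of -0.94 and 0.04. Sel1l, the partner of HRD1, had ratios of -0.42 and 0.01, the latter -0.04 on the deposited signals. Its 4 other probe sets ranged from -0.02 to 0.43 after PBS and from -0.58 to 0.16 after ethylbenzene.

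Of the sensor kinase genes, Eif2ak3 was low on E+E alone and Ern1, in the probe set used, on both ethylbenzene arrays. Eif2ak3 (PERK) read 825 on P+P and 721 on P+E, and 662 on E+P and 297 on E+E, so that E+E alone was low, 2.07-fold below E+P and 2.25-fold below P+E. Ern1 (IRE1) read 1795, 2323, 955 and 928, with both ethylbenzene arrays the low ones and log2 ratios of -0.88 and -1.29. The 3 other probe sets of Ern1 past the filter gave only 0.10 to 0.24 after PBS and -0.34 to 0.10 after ethylbenzene. Atf6 read between 1673 and 1971 and its ratios were 0.23 and -0.00, where its 2 other probe sets gave 0.37 and 0.64 after PBS and 0.37 and 0.73 after ethylbenzene. Xbp1, whose messenger IRE1 splices, read 17742 on P+P and 27075 on P+E, and 13473 on E+P and 27553 on E+E. Both ethylbenzene arrays were the high ones, 1.52-fold and 2.04-fold, and its other probe sets gave 1.02, -0.27 and 0.91 after PBS and 1.04, 1.07 and 0.96 after ethylbenzene. A probe set signal does not tell spliced from unspliced Xbp1. Of the 19 genes with more than 1 probe set past the filter, all probe sets had the same sign for 10 after PBS and for 9 after ethylbenzene.

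**Figure D4:**
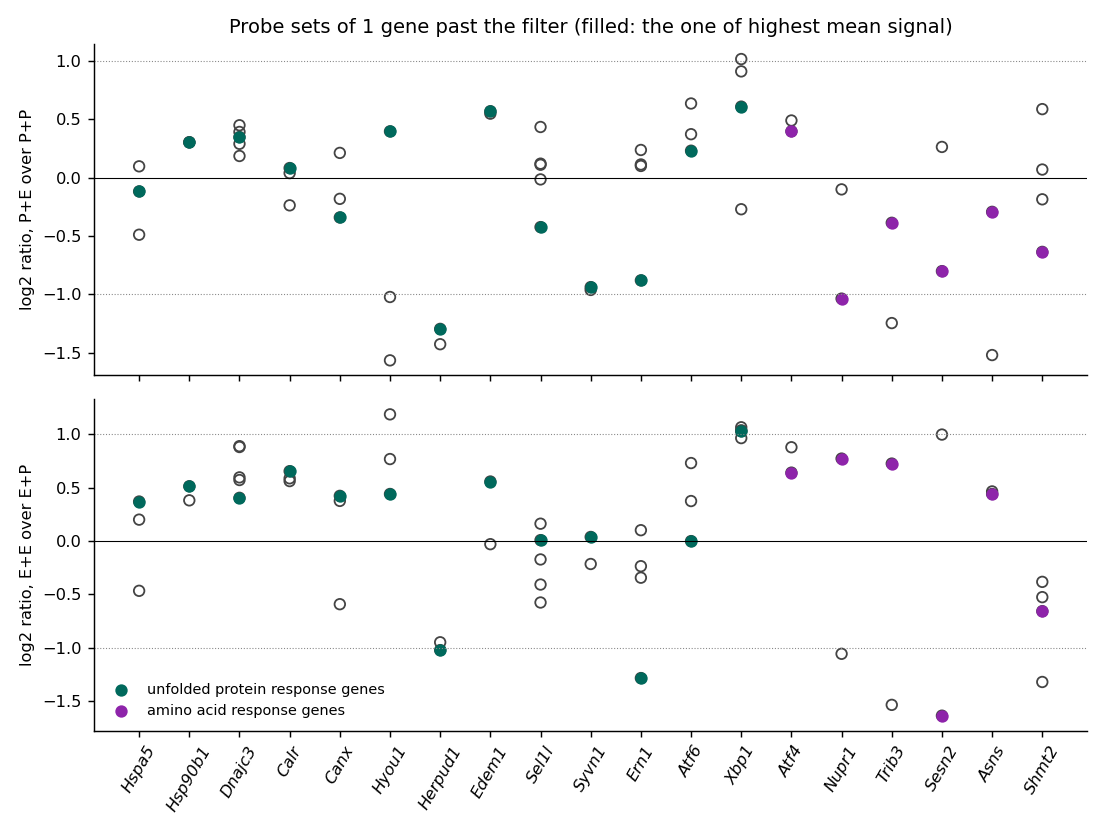
Log2 ratios of all probe sets past the filter for the 19 genes with more than 1 (filled, the set of highest mean signal used in the text, green for unfolded protein response and purple for amino acid response; open, the others), for P+E over P+P (top) and E+E over E+P (bottom). The probe sets of Herpud1, Dnajc3 and Hsp90b1 lie together on 1 side of 0 in both panels, whereas those of Hyou1, Trib3, Nupr1 and Sesn2 lie far apart in at least 1 panel.

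Among the transcription factors of the ATF4 branch, Atf4 itself read 4699 on P+P and 6202 on P+E, and 4806 on E+P and 7519 on E+E. Both ethylbenzene arrays were above both PBS arrays, with log2 ratios of 0.40 and 0.64, short of 2-fold. ATF4 is controlled mainly in translation, which arrays do not measure. Atf5, a related factor, read 1365, 1401, 1602 and 2434, with ratios of 0.23 and 0.78. Ddit3 (CHOP) read 775 on P+P and 232 on P+E, and 553 on E+P and 485 on E+E, so P+E was the low array, 2.97-fold below P+P, while E+E was 1.13-fold below E+P. Nupr1, a small stress-induced nuclear protein, read 393, 218, 169 and 403, with log2 ratios of -1.04 and 0.77. Against E+P the first was -0.30. The other probe set of Nupr1 gave -0.10 and -1.06, so the directions after ethylbenzene differed between probe sets.

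Ppp1r15a (GADD34), which directs a phosphatase to eIF2 and so ends the response, read 883 on P+P and 1508 on P+E, and 671 on E+P and 1240 on E+E, higher on both ethylbenzene arrays by 1.67-fold and 1.80-fold. Trib3, a pseudokinase that restrains ATF4 and CHOP, read 279, 232, 203 and 412, with ratios of -0.39 and 0.73, where its other probe set gave -1.25 and -1.54. Sesn2, a leucine-binding inhibitor of mTORC1, read 569, 441, 308 and 113, the last below the filter level, with ratios of -0.80 and -1.64. Its other probe set gave 0.26 and 0.998.

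Unlike Chac1, none of the 4 enzymes of amino acid synthesis passed 2-fold upwards in both second-exposure ratios. Asns (asparagine synthetase), the classical AARE-driven gene, read 738 on P+P and 594 on P+E, and 511 on E+P and 710 on E+E, with ratios of -0.29 and 0.44, where its other probe set gave -1.52 and 0.46. Psat1, of serine synthesis, had ratios of -0.65 and -0.39, and Shmt2, of mitochondrial one-carbon metabolism, -0.64 and -0.66, with both ethylbenzene arrays the low ones for each. The 3 other probe sets of Shmt2 ranged from -0.19 to 0.59 after PBS and from -1.32 to -0.38 after ethylbenzene. Phgdh, which starts serine synthesis, read 142 on P+P and 682 on P+E, and 294 on E+P and 54.3 on E+E. P+E was high and E+E was below the filter level, so with E+E set to that level its ratio after ethylbenzene was -0.94 in place of -1.79. Its 3 other probe sets were below the filter. They gave -0.19, -1.42 and -0.39 after PBS, and -0.55, -0.10 and 0.07 after ethylbenzene, so the rise in P+E rests on 1 probe set.

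After PBS, 0 of 22 unfolded protein response genes passed 2-fold upwards and 2 downwards, and 3 of 13 amino acid response genes were higher and 2 lower. Together these were 8.57% higher and 11.4% lower, against 7.22% and 7.11% of all genes. After ethylbenzene, 2 of 22 were higher and 3 lower, and 2 of 13 were higher and 2 lower. Together these were 11.4% and 14.3%, against 7.55% and 7.17% of all genes. The median log2 ratio was -0.08 after PBS and 0.43 after ethylbenzene for the unfolded protein response, and -0.29 and 0.64 for the amino acid response. With E+P in place of P+P the medians after PBS were 0.15 and 0.19. Ern1 (-1.24), Xbp1 (1.0046) and Ppp1r15a (1.12) then passed 2-fold, Dnajb9, Herpud1 and Nupr1 did not, and Eif2ak3 (0.12) and Asns (0.20) turned sign. Phgdh (1.11), Ddit4 (1.66) and Ddit3 (-1.11) stayed beyond 2-fold and Syvn1 was at -0.39. Xbp1 (1.03) and Pdia4 (1.30) were the unfolded protein response genes at least 2-fold higher in E+E over E+P, and P+E over P+P had none.

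**Figure D5:**
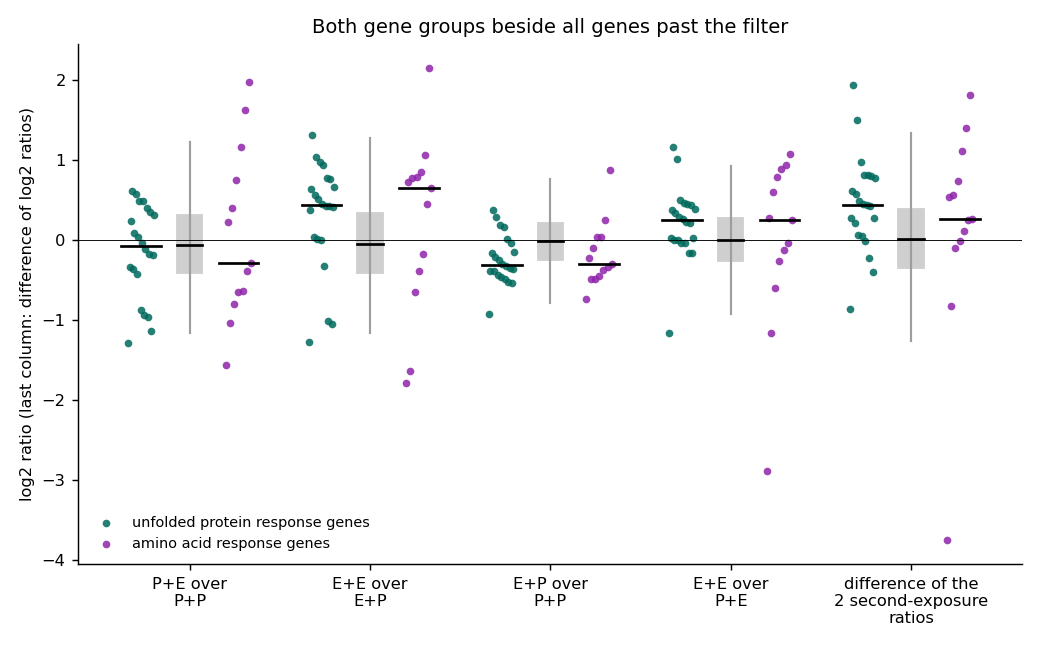
Log2 ratios of the 22 unfolded protein response genes (green) and the 13 amino acid response genes (purple) in each comparison, with black bars at the medians, beside all genes past the filter (grey box, quartiles; grey line, the 5th to 95th percentile); the last column is the difference of the second-exposure ratios. Green medians go from -0.08 in P+E over P+P to 0.43 in E+E over E+P, and are -0.32 in E+P over P+P.

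The first exposure, read in mice given PBS in the second (E+P over P+P), left 0 of 35 genes at least 2-fold higher or lower, against 2.95% and 3.19% of all genes. Of the 14 chaperones and folding enzymes, a set looked at apart after seeing the data, 2 were above 0. Their median was -0.34, against 48.1% above 0 and a median of -0.01 over all genes. Creld2 (-0.93), Manf (-0.53) and Hspa5 (-0.50) were among the lowest. Read in mice given ethylbenzene in the second (E+E over P+E), 12 of 14 were above 0, with a median of 0.31, against 49.7% and -0.00 over all genes. Pdia4 (1.16), Creld2 (2.00-fold) and Nupr1 (1.07) were at least 2-fold higher, and Eif2ak3 (-1.17), Sesn2 (-1.17) and Phgdh (-2.89) at least 2-fold lower. The other probe set of Nupr1 gave -0.094 and that of Sesn2 -0.0013, so both calls rest on 1 of 2 probe sets. The calls were 8.57% each way, against 4.38% and 4.39% of all genes. With E+E at the filter level, Sesn2 was at -0.996 and Phgdh at -2.04. E+P over P+P and E+E over P+E share no array, but each shares arrays with the second-exposure ratios.

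The difference between the second-exposure ratios was at least 2-fold higher for Creld2 (1.93), Nupr1 (1.81), Pdia4 (1.496), Ddit3 (1.39) and Trib3 (1.11), and at least 2-fold lower for Phgdh (-3.76). This was 14.3% higher and 2.86% lower, against 8.57% and 7.46% of all genes. The other probe set of Nupr1 gave -0.10 after PBS and -1.06 after ethylbenzene, and that of Trib3 gave -1.25 and -1.54. For both the difference was then below 0, so these calls rest on 1 of 2 probe sets and the share of 14.3% depends on them. The call for Phgdh rests on 1 of its 4 probe sets, the others being below the filter. The difference holds the error of all 4 arrays and has no replicate check.

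Other genes of these pathways were read from lists of 230 genes, cell markers included, written with earlier results known. Of 21 other folding and oxidation genes 1 differed at least 2-fold in both second-exposure ratios. This was Fkbp11, an ER peptidyl-prolyl isomerase, which read 1270 on P+P and 374 on P+E, and 1291 on E+P and 622 on E+E. It was lower on both ethylbenzene arrays, as Herpud1 was. None of 20 translocon, signal peptidase and glycosylation genes, none of 17 other degradation genes, none of 20 tRNA synthetase genes, none of 9 serine, one-carbon, proline and cysteine genes, none of 3 substrates of IRE1-dependent decay and none of 15 eIF2 kinase, phosphatase and initiation factor genes did so. Of 15 coat and ER membrane factor genes Creb3l2 was higher in both (1.24 and 1.17). Of 5 ATF4-branch transporters past the filter Slc38a2, a neutral amino acid carrier, read 6054, 4472, 16100 and 17577, high on both ethylbenzene arrays (1.40 and 1.96). Over all genes past the filter 3.19% were higher and 2.03% lower in both ratios. Single calls in lists of this size are therefore not read as results about the lists.

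Of the ATF4 and CHOP targets and partners 17 were measured and 16 were past the filter, and 4 passed 2-fold upwards in both ratios, a call made for 3.19% of all genes. This list too was written with earlier results known, so the 2 shares cannot be weighed against each other. Whether ATF4 or CHOP drives each listed gene in liver was not tested. Atf3, a stress-induced repressor, read 99.9 on P+P and 461 on P+E, and 26.1 on E+P and 810 on E+E, with ratios of 1.52 and 2.28 when low signals were set to the filter level. It passed the filter only through the ethylbenzene arrays. Rnf103 (1.48 and 2.09), Ndrg1 (1.67 and 1.59) and Cebpb (1.11 and 1.30) were the others.

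Markers of some other cell types also differed with the second exposure. In a pooled tissue, fewer cells of a type and less RNA per cell cannot be told apart. Pancreatic acinar genes, of secretory cells rich in ER, had 21 of 25 measured, and 14 past the filter, of which some passed only through the ethylbenzene arrays. The summed signal of the 21 was 4626 on P+P and 12131 on P+E, and 3396 on E+P and 11561 on E+E. Ctrb1, a defining acinar gene with a ratio among the largest of the list, read 10.9 on P+P and 785 on P+E, and 12.9 on E+P and 804 on E+E. Of the 14 past the filter, 13 were above 0 in each second-exposure ratio. Cela1, the highest of the list on P+P, went the other way (2338, 1904, 1617 and 1764). Below the filter, Cuzd1 (-1.92), Pla2g1b (-1.24), Sycn (-1.17) and Bhlha15 (-1.18) were lower after PBS but not after ethylbenzene, while Gp2 was higher (1.03). Plasma and B cell genes, 5 of 8 past the filter and also of ER-rich cells, summed to 944, 1029, 799 and 1068. Neutrophil genes, 5 of 10 past the filter, summed to 1183, 966, 4357 and 6897. Most of that rise lay in S100a8 (116, 151, 1506 and 2347) and S100a9 (125, 70.3, 2025 and 3183). Of the 5 past the filter, 4 were above 0 after PBS and 5 after ethylbenzene. S100a9 passed only through the ethylbenzene arrays, and S100a8, Mmp8 and Mmp9 were below the filter level on P+P, so the filter favours such a count. With low signals set to that level, Mmp8 after PBS was 0.18 in place of 0.53. Ngp went the other way after PBS (-0.89), as did Camp (-1.51), which was below the filter. Kupffer cell genes, all 8 past the filter, summed to 16609, 25443, 14389 and 16489, highest on E+P. Sinusoidal endothelial genes summed to between 7100 and 7401, stellate genes to between 12727 and 16432 and cholangiocyte genes to between 799.5 and 1265. These sums held opposite moves of single genes. Lyve1 was higher in both second-exposure ratios (2.48 and 3.41). Kdr (-0.94 and -0.92), Clec4g (-0.42 and -0.51) and Stab2 (-0.41 and -0.26) were lower. Among cholangiocyte genes Sox9 had 1.54 and 2.00, Krt19 0.62 and 0.33, and Epcam -1.18 and -0.03. The part of these cells in the values above was not tested.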

How the data were processed

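Liver RNA pooled by group was measured on 4 arrays, 1 per group; the sample titles gave the groups. The deposited values are linear intensities for 45101 probe sets per array. Their 2% trimmed mean was 500.0 on each array, so the authors had scaled them; the summarising software and its settings are not given in the sources used here. Intensities were quantile-normalized and expressed as log2(signal + 43.2), the 25th percentile of all deposited signals, which understates differences of low genes. Depth does not apply to arrays; their number, 1 per group, limits the precision, so p-values and standard errors were not calculated.

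Of the probe sets, 34945 had 1 gene symbol in the platform annotation, 932 had several, 9160 had none listed and 64 were controls; 34741 were updated through Entrez identifiers. Each gene was read from its probe set of highest mean, and 11527 of 18193 genes had a mean of at least 132.9. The 35 genes and the other gene lists were chosen with earlier results of these data known. All 35 are given or summarised; other pathway genes are named where both second-exposure ratios passed 2-fold in 1 direction. The ratios were P+E over P+P, E+E over E+P, E+P over P+P and E+E over P+E. The steps were tested on simulated data and run in Python 3.11.15 with pandas 2.3.3 and numpy 2.4.6. Promoter windows came from RefSeq (GRCm38.p6). Alternatives changed the scaling, pseudocount, filter, probe set choice and the P+P array.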

Additional observations from a re-analysis of the deposited data

Results flagged for a closer look

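Creld2, Nupr1 and Phgdh had second-exposure ratios that pointed opposite ways after PBS and after ethylbenzene, each by at least 1.5-fold. The difference of the log2 ratios was 1.93 for Creld2, 1.81 for Nupr1 and -3.76 for Phgdh. With 1 array per group these differences were not tested. Such genes were 3 of the 35 (8.57%) and 355 of the 11527 genes past the filter (3.08%). With signals below the filter level set to it, the difference for Phgdh was -2.91. With E+P in place of P+P the ratio after PBS was -0.04 for Creld2 and -0.30 for Nupr1, both under 1.5-fold. The other probe set of Nupr1 gave -0.10 and -1.06, which do not point opposite ways. The 3 other probe sets of Phgdh, all below the filter, gave -0.19, -1.42 and -0.39 after PBS. They did not show its rise, so its opposite ratios rest on 1 probe set.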

How the results depend on the processing

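No paired analysis was possible because each group was 1 array. Over the alternatives, 144 of 173 counts stayed within 1.5 times the value above, 106 of 123 medians within 0.1, and 149 of 180 ratios of single genes kept their sign and their side of 2-fold; 29 ratios of single genes fell below 2-fold and 2 turned sign. Phgdh in P+E over P+P was -0.0065 as a mean of probe sets, and Nupr1 in E+E over P+E was -0.094 without the shared (_s_at and _x_at) probe sets. In the unfolded protein response after PBS, a common 75th percentile gave 4 genes lower and a median of -0.18 (chaperones -0.11), and E+P in place of P+P gave 1 higher, 1 lower and a median of 0.15 (chaperones 0.19, 12 above 0). After ethylbenzene this arm had 1 gene higher at the 75th percentile and 0 lower as means of probe sets. In its E+E over P+E ratio, 1 was higher at the 75th percentile and with the median signal as pseudocount, and 0 were lower with that pseudocount and as means of probe sets; means of probe sets also gave medians of -0.22 in E+P over P+P and a chaperone difference of 0.72. In the amino acid response after PBS, 1 gene was lower as deposited, at the 75th percentile scaling, with the median pseudocount, at the 75th percentile filter (median 0.31), without shared probe sets (median -0.016) and with E+P (median 0.19), and 0 as means of probe sets (median -0.041). After ethylbenzene it had 1 higher at the 75th percentile scaling and the median pseudocount, 0 lower at the stricter filter and as means of probe sets (median 0.15), and a median of 0.54 without shared probe sets. In its E+E over P+E ratio, 2 were higher with pseudocount 16 and 0 with the median pseudocount, at the stricter filter and without shared probe sets (median 0.10); 1 was lower with the median pseudocount and without shared probe sets, and 0 at the stricter filter and as means of probe sets (median 0.021). Means of probe sets gave a median of 0.051 in E+P over P+P and 0.026 in the difference, and the stricter filter 0.39 in the difference. The stricter filter left 8 amino acid response genes; the other causes were not tested. The chaperone results and these alternatives for them were chosen after seeing the data. With 1 pool per group, none of these values can be set against the spread between mice, and signals near 132.9, as of Phgdh and Sesn2 on E+E, are close to background.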
